A study of Pyrus pyrifolia with 6 samples.

Results

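The genes described here encode actin, tubulin and the proteins that work on them, together with the machinery that moves vesicles between membranes in the pulp of pear fruit. They were taken by words in the gene descriptions of the deposited table: actin, tubulin, myosin, formin, villin, exocyst, clathrin, syntaxin, SNARE, vesicle, Rab and ras-related, coatomer, and vacuolar sorting, leaving out descriptions with microtubule, kinesin or kinase. The words matched 52 of the 4291 genes that have values for each library. Of these, 47 are described as cytoskeleton or trafficking proteins. The other 5 matched by chance of spelling, because the enzyme tag UDP-forming contains the letters of formin, and they are given apart near the end.

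Microtubules are polymers of alpha and beta tubulin, and in plant cells they guide the complexes that spin cellulose at the plasma membrane. Actin filaments are the tracks on which myosin motors carry organelles and vesicles. Vesicles leave a membrane under coats such as clathrin or coatomer, are steered by Rab GTPases, are tethered at the plasma membrane by the exocyst and fuse through SNARE proteins. This route delivers pectin and hemicellulose to the cell wall, where boron cross-links pectin.

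The study compared Akibae pear (Pyrus pyrifolia) fruit given a boron application with control fruit, labelled CK, by mRNA sequencing of orchard-grown pulp, to ask which transcripts differ with boron. Each group had 3 libraries. The dose, form and timing of the boron, the treatment of the controls and the stage at harvest are not stated in the sources used here. Whether the 3 libraries of a group stem from different trees is not stated in the labels, and the p-values speak only to how these libraries vary, which may be technical.

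All values are normalized counts, meaning reads of a gene in a library divided by that library's size factor, as the authors deposited them. The libraries held between 1914312 and 2056668 reads in the listed genes. Fold changes are log2 of boron over CK on log2(normalized count + 1), with standard errors and adjusted p-values from limma over all 4291 genes. The table holds only genes that the authors had called different on these same libraries, so passing the test was fixed by that selection. The authors' smallest absolute log2 fold change is 1.00, so sizes were selected on these libraries too. The direction can be read, and the sizes only with that limit, since smaller changes are missing and kept ones may be overstated. A difference in bulk pulp cannot tell fewer cells of a type from less RNA per cell.

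With the authors' size factors, 33 of the 47 genes were higher and 14 lower in boron fruit, and all 47 passed. Among all listed genes 73% were called higher and 26.2% lower, which is close to the members' split. The median log2 fold change of the members was 1.60, against 1.62 for all listed genes. Setting the member without CK reads at its lower bound could not move that median, because the gene lies above it either way. The groups did not overlap in 45 of the 47, where 97.7% of all listed genes had groups apart, and the exceptions were a vesicle-associated protein (LOC103965937) and a clathrin assembly protein (LOC103932728). The fold changes ranged from -2.55 for syntaxin-71-like (LOC103927828) to 5.81 for a myosin heavy chain-like gene (LOC103947852).

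The 14 genes that fell and the 33 that rose differed in how many kept their calls under scalings that moved the median fold change downward. With TMM scaling over the listed genes, which takes most of them to be unchanged and moved their median by -1.40 on the log2 scale, 14 members were higher and 14 lower. Of all listed genes, 33.4% were then called higher and 28.9% lower, and with DESeq2-type scaling, which moved the median by -1.35 and again gave 14 and 14, the shares were 34.6% and 28.3%. All 14 falls passed under TMM, DESeq2-type and quantile scaling. Of the 33 rises, 10 passed under all 3 scalings, 6 under 1 or 2 of them and 17 under none. TMM and DESeq2-type scaling lower every fold change by a like amount, so that falls are favoured by their construction. Quantile scaling does not lower each gene alike, but it moved the median of the listed genes by -1.25, also downward. The scalings were fitted to genes already selected as different. The passing of the falls is therefore no separate check of them, and falls and rises were not put to an equal test.

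**Figure D1:**
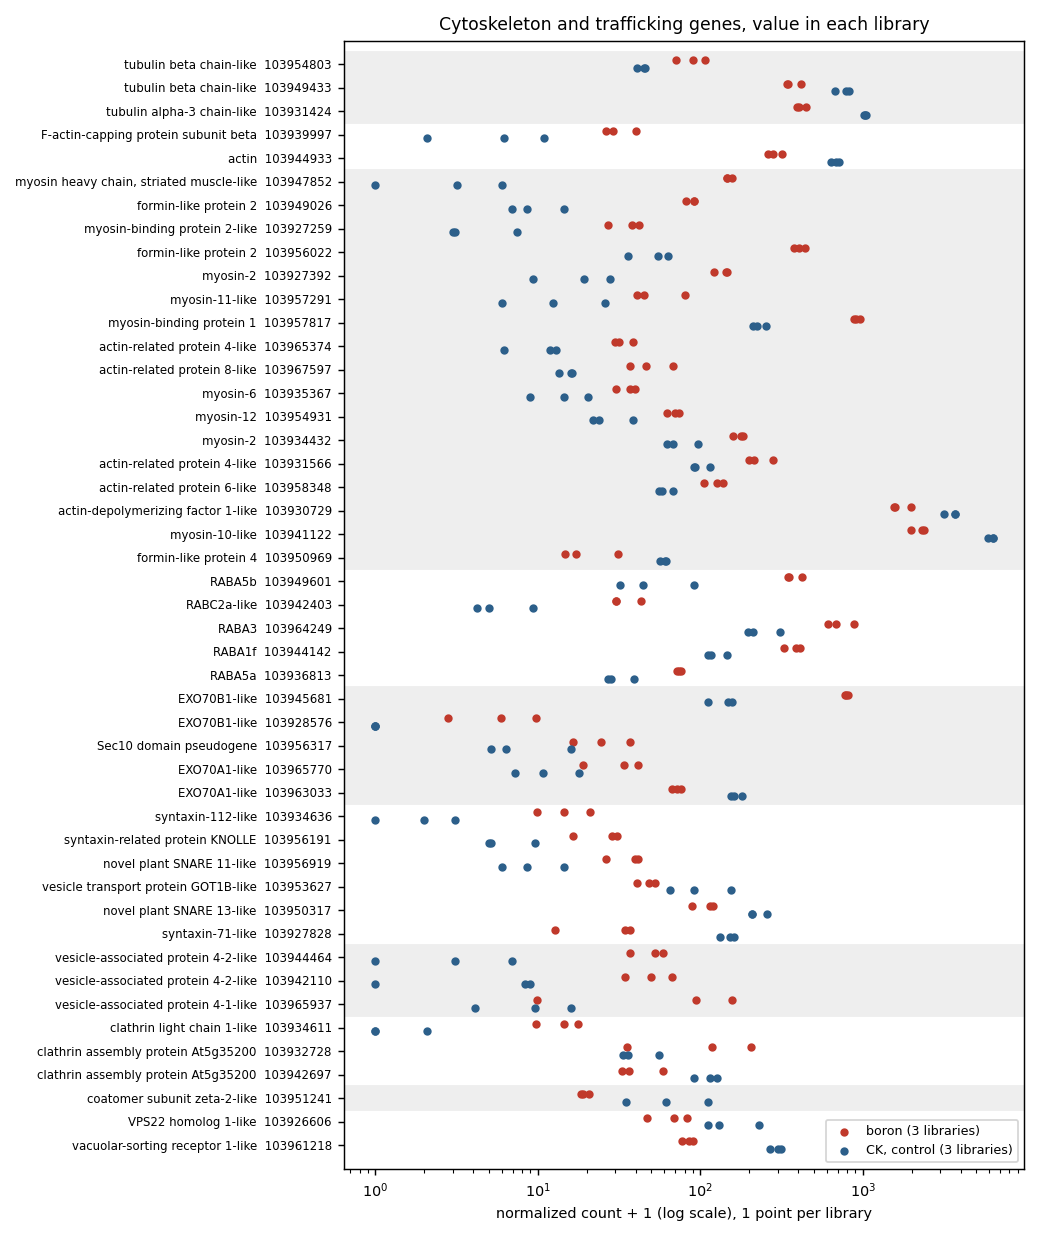
Normalized count plus 1 in each library (log scale) for the 47 cytoskeleton and trafficking genes, grouped by class in shaded bands, with 3 boron libraries in red above 3 CK libraries in blue for each gene. Points of the 2 groups stand apart in 45 genes, and the most abundant genes, myosin-10-like and actin-depolymerizing factor 1-like, have their boron points on the left of their CK points.

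The most abundant listed subunits of the filaments were lower in boron fruit. Tubulin alpha-3 chain-like (LOC103931424, scaffold NW_008988549.1, 3956 to 7094, in the authors' coordinates) had 404, 390.4 and 448 normalized counts in the boron libraries and 1024, 1044 and 1028 in the CK libraries. Its log2 fold change was -1.32 ± 0.09 (limma, adjusted p = 1.85e-07), and no boron value came near a CK value. A tubulin beta chain-like gene (LOC103949433, scaffold NW_008988103.1, 720201 to 722627) had 348, 341 and 415 in boron against 786, 679 and 824 in CK, a change of -1.05 ± 0.11 (limma, adjusted p = 8.44e-06). The gene described simply as actin (LOC103944933, scaffold NW_008988068.1, 428204 to 431404) had 281, 261 and 316 in boron and 636, 715 and 682 in CK, with groups far apart and a change of -1.24 ± 0.11 (limma, adjusted p = 1.4e-06). These 3 falls were each about 1 log2 unit, not far from 1.00, the authors' smallest absolute change among the listed genes. All 3 kept their direction and passed under the 3 other scalings. Those scalings moved the median of the listed genes downward, so that is no separate check of the falls.

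The second tubulin beta chain-like gene went the other way. LOC103954803 averaged 88.4 ± 18.6 normalized counts in boron and 42.9 ± 2.55 in CK (SD, n = 3 each), a log2 fold change of 1.01 ± 0.23, but with TMM it was -0.41 and did not pass. It is the minor copy: per kilobase of gene length it had 62.1 normalized counts in boron and 30.1 in CK, while LOC103949433 had 206 in boron and 428 in CK. Summed over the 3 tubulin genes, boron libraries had 870.4 ± 76.4 normalized counts and CK libraries 1838 ± 64.1 (SD, n = 3 each).

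Proteins that cut or cap actin filaments moved in both directions. Actin-depolymerizing factor 1-like (LOC103930729, scaffold NW_008988521.1, 345348 to 347929), whose kind severs filaments, had the highest level per kilobase of all 47 genes in both groups, 1953 normalized counts per kilobase in boron and 4038 in CK. Its normalized counts were 1579, 1549 and 1982 in the boron libraries and 3167, 3685 and 3710.2 in the CK libraries, groups that did not overlap. The log2 fold change was -1.05 ± 0.10 (limma, adjusted p = 3.65e-06). A probable F-actin-capping protein subunit beta (LOC103939997), which blocks growth at a filament end, was a low gene with 28.1, 25.2 and 39.3 in boron and 9.97, 5.20 and 1.08 in CK. It rose by 2.59 ± 0.60 on the log2 scale, was 1.93 without CK library 3, and did not pass under TMM at 1.33.

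Myosin names covered 9 genes, of which 8 rose and 1 fell (4 and 1 with TMM). Beside these counts, 73% of all listed genes were called higher and 26.2% lower, or 33.4% and 28.9% with TMM. Those with the motor domain (Myosin_head) in the family column of the deposited table were 5, and all 5 rose: myosin-2 (LOC103927392) by 2.99 ± 0.37, myosin-11-like (LOC103957291) by 2.09 ± 0.52, and, with a fold change that TMM turned below 0, myosin-6 (LOC103935367), myosin-12 (LOC103954931) and the second myosin-2 (LOC103934432). The first myosin-2 gene was the only one of these 5 to pass under TMM, with 136 ± 13.7 normalized counts in boron and 17.9 ± 9.31 in CK. Myosin-11-like had 54.4 ± 21.7 in boron and 13.8 ± 10.1 in CK, and myosin-6 had 34.7 ± 4.77 in boron and 13.6 ± 5.73 in CK. Myosin-12 had 67.9 ± 5.65 in boron and 27.2 ± 9.22 in CK, and the second myosin-2 gene had 173 ± 12.3 in boron and 74.6 ± 18.4 in CK. The motor genes were low per kilobase, at most 38.6 normalized counts per kilobase in boron.

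Myosin-binding protein 1 (LOC103957817, scaffold NW_008988195.1, 286871 to 288556), known in Arabidopsis as a vesicle receptor for myosin, had 961, 909 and 887 normalized counts in boron and 251, 209 and 223 in CK. The groups stood far apart, with a log2 change of 2.01 ± 0.10 (limma, adjusted p = 2.71e-08) and of 0.58 with TMM, which still passed. Myosin-binding protein 2-like (LOC103927259) had 34.8 ± 7.76 in boron and 3.52 ± 2.57 in CK, a change of 3.10 ± 0.50.

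A further pair of genes with myosin names went in opposite directions. LOC103947852, described as a striated-muscle-like myosin heavy chain, had 155, 144 and 145 normalized counts in boron and 4.99, 0 and 2.16 in CK. That is the largest fitted log2 change among the members, 5.81 ± 0.58 (limma, adjusted p = 4.06e-06), with a value of 5.10 when CK library 2, the library at 0, is left out. Myosin-10-like (LOC103941122, scaffold NW_008989268.1, 74207 to 82878) was the most abundant member in counts, with 2330.0, 2387 and 1984 in boron and 5895, 6327 and 6382 in CK, a change of -1.48 ± 0.08 (limma, adjusted p = 3.2e-08). Neither has the motor domain in the family column, but that column is empty for many genes, so the name is all that is given for them. Myosin-10-like alone made up 20.5% ± 2.56 of the members' counts in boron libraries and 41.7% ± 0.201 in CK libraries (SD, n = 3 each).

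Formins, which nucleate actin filaments, split. The formin-like protein 2 genes rose, LOC103949026 with 90.1, 80.2 and 90.3 normalized counts in boron and 5.98, 13.5 and 7.56 in CK, and LOC103956022 with 408 ± 31.1 in boron and 50.4 ± 14.1 in CK. Their log2 fold changes were 3.20 ± 0.34 and 3.03 ± 0.21, and both passed under all 3 other scalings. Formin-like protein 4 (LOC103950969) fell to 20.0 ± 8.78 in boron against 58.5 ± 2.95 in CK, a change of -1.58 ± 0.33.

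The actin-related proteins on the list, ARP4, ARP6 and ARP8, are nuclear members of the actin family, and ARP4 and ARP6 belong to chromatin-remodelling complexes. All 4 genes were higher with the authors' size factors, by 1.75 (LOC103965374) and 1.21 (LOC103931566) for ARP4-like, 1.02 (LOC103958348) for ARP6-like and 1.68 (LOC103967597) for ARP8-like. None of the 4 passed under TMM, where LOC103931566 and LOC103958348 turned below 0. Among all listed genes 73% were called higher, or 33.4% with TMM.

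**Figure D2:**
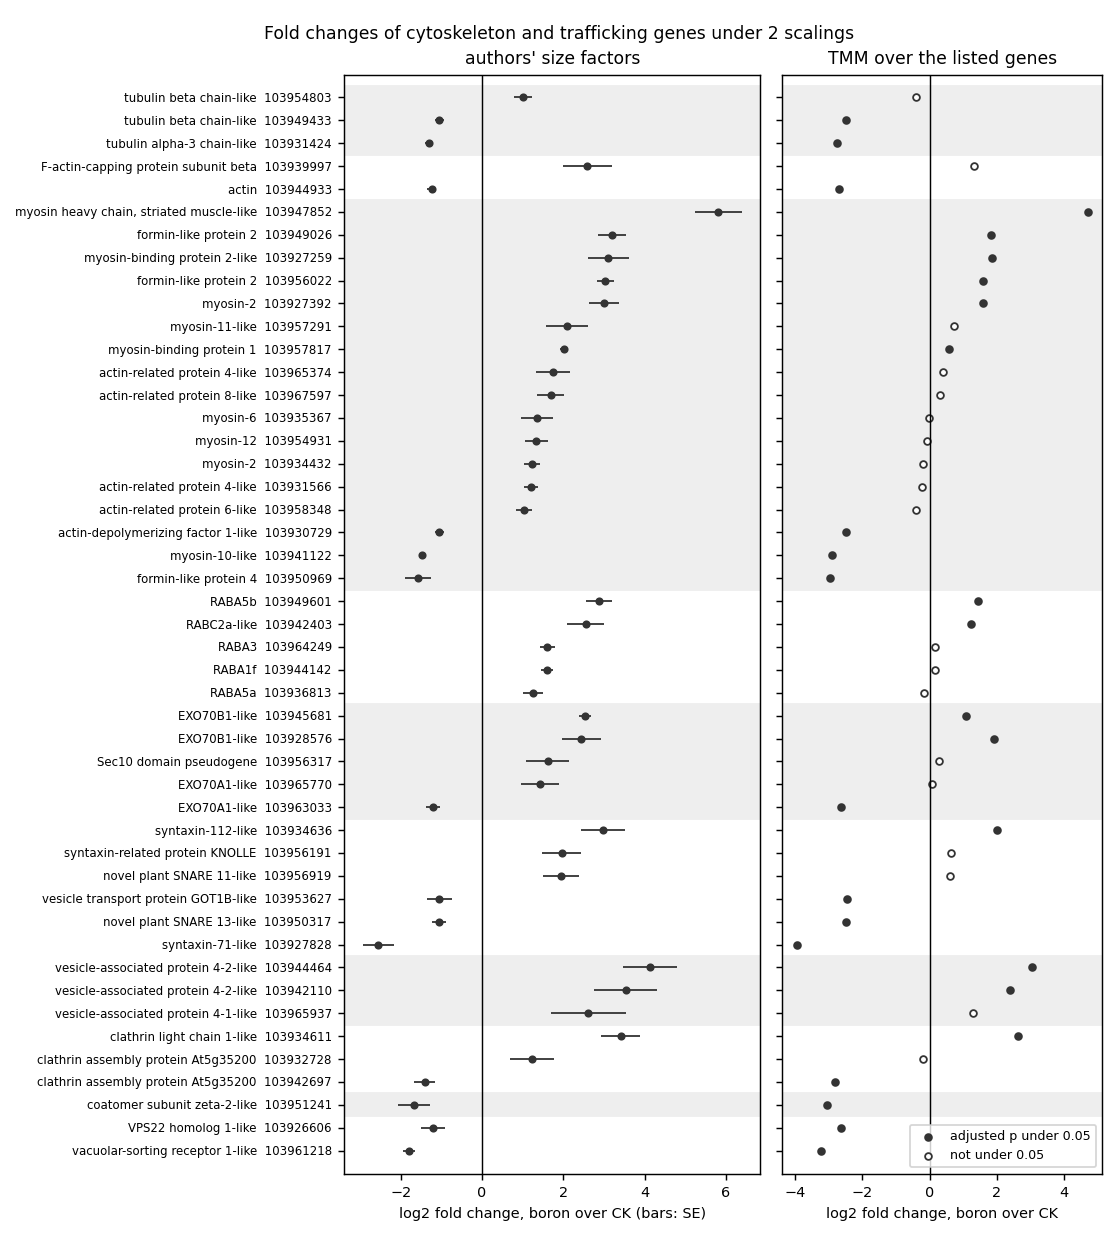
Log2 fold change of each gene, boron over CK, with the authors' size factors on the left (points with SE bars) and with TMM scaling on the right. Filled points have an adjusted p under 0.05, and the 14 genes left of 0 on the left are left of 0 and filled on the right.

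Rab GTPases mark the identity of membranes and recruit tethers and motors. All 5 Rab genes were higher in boron fruit with the authors' size factors, where 73% of all listed genes were called higher. TMM left 2 of the 5 calls, where 33.4% of all listed genes were called higher, and turned RABA5a below 0. In this class 4 of the 5 belong to the RABA group of trans-Golgi and endosome Rabs. RABA5b (LOC103949601, scaffold NW_008988104.1, 1078504 to 1081952) had 349, 348 and 424 normalized counts in boron and 90.7, 31.2 and 43.2 in CK, with groups apart and a change of 2.88 ± 0.32 (limma, adjusted p = 9.29e-06). RABA3 (LOC103964249) had 681, 607 and 881 in boron and 308, 211 and 197 in CK, a change of 1.61 ± 0.18, which fell short under TMM at 0.17. RABC2a-like (LOC103942403) was low, with 29.1, 42.4 and 29.4 in boron and 3.99, 8.33 and 3.24 in CK, and rose by 2.55 ± 0.46. Only RABA5b passed under all 3 other scalings. RABA1f (LOC103944142) had 375 ± 41.9 in boron and 124 ± 18.4 in CK and did not pass under TMM at 0.16. RABA5a (LOC103936813), with 72.8 ± 2.00 in boron and 30.3 ± 6.61 in CK, changed by 1.26 ± 0.25 with the authors' size factors and by -0.15 with TMM.

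EXO70 subunits place the exocyst on the plasma membrane, and in plants they form a large family with separate roles. EXO70B1-like (LOC103945681, scaffold NW_008988073.1, 539252 to 541446), a subunit tied to autophagy and immunity in Arabidopsis, had 789.9, 806 and 781 normalized counts in boron and 111, 147 and 157 in CK. The 3 boron values lay close together and far above CK, with a log2 change of 2.53 ± 0.14 (limma, adjusted p = 4.22e-08), which passed under every scaling. A second EXO70B1-like gene (LOC103928576) had 8.72, 1.80 and 4.91 in boron and no reads in any CK library. With the authors' size factors it was at least 4.88-fold higher by the limit of 3 reads over the CK group. That limit covers counting error in CK only and takes the 16 boron reads as exact. The gene passed under TMM and DESeq2-type scaling, at 1.91 in each, but not under quantile scaling, at 0.093.

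The EXO70A1-like genes, whose Arabidopsis counterpart serves polar growth, had fold changes of opposite sign with the authors' size factors. LOC103963033 had 75.6, 71.2 and 65.8 normalized counts in boron and 179, 160.3 and 153 in CK, a fall by 1.20 ± 0.17 on the log2 scale with groups apart (limma, adjusted p = 5.43e-05). LOC103965770 had 30.4 ± 11.3 in boron and 11.0 ± 5.46 in CK, a change of 1.42 ± 0.47 that lost its call without boron library 3 (limma, adjusted p = 0.0589) and under TMM, DESeq2-type and quantile scaling, at 0.067, 0.11 and -0.20. An entry annotated as a pseudogene and described only by the family Sec10, another exocyst subunit (LOC103956317), had 25.0 ± 10.4 in boron and 8.17 ± 5.91 in CK, and its call was lost without boron library 2 (limma, adjusted p = 0.0682) and under the same 3 scalings.

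SNARE proteins drive membrane fusion, and in Arabidopsis KNOLLE fuses vesicles into the cell plate of dividing cells with NPSN11 and SYP71 as partners. The genes for KNOLLE, syntaxin-112-like and NPSN11-like rose, and those for syntaxin-71-like and NPSN13-like fell. Syntaxin-112-like (LOC103934636), a close relative of KNOLLE, had 13.6, 19.8 and 8.83 normalized counts in boron and 0.997, 2.08 and 0 in CK. On 3 CK reads in all, the ratio with the authors' size factors was 13.7 (counting interval 4.40 to 69.0). Syntaxin-112-like passed under TMM and DESeq2-type scaling, at 2.02 and 2.04, but not under quantile scaling, at 0.61. KNOLLE itself (LOC103956191), the syntaxin of plant cytokinesis, had 24.2 ± 7.65 in boron and 5.60 ± 2.64 in CK, a change of 1.95 ± 0.48. NPSN11-like (LOC103956919) had 34.7 ± 8.29 in boron and 8.69 ± 4.38 in CK, a change of 1.95 ± 0.44. Neither KNOLLE nor NPSN11-like passed under TMM (0.65 and 0.61).

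Syntaxin-71-like (LOC103927828, scaffold NW_008988434.1, 159507 to 163518), the relative of SYP71, had 35.9, 11.7 and 33.4 normalized counts in boron and 159.5, 152 and 131 in CK, the deepest fall of the members at -2.55 ± 0.37 (limma, adjusted p = 7.56e-05). NPSN13-like (LOC103950317) had 119, 88.4 and 114 in boron and 208, 208 and 255 in CK, a change of -1.06 ± 0.17. GOT1B-like (LOC103953627), a Golgi transport protein, had 46.0 ± 5.92 in boron and 103 ± 46.3 in CK, a change of -1.06 ± 0.31. Within each library the recovered reads of KNOLLE, syntaxin-112-like and NPSN11-like, divided by those of syntaxin-71-like and NPSN13-like, came to 0.350, 0.883 and 0.520 in boron and 0.0271, 0.0549 and 0.0420 in CK. The ratio was higher in every boron library than in any CK library, and a ratio within a library does not depend on its size factor. The genes were grouped by their direction after the values were seen, which fixes the direction of this ratio, so it is a description.

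Vesicle-associated proteins 4-1 and 4-2, of the VAP family that links the endoplasmic reticulum to other membranes, were all higher in boron. With TMM 2 of the 3 genes passed as higher. Among all listed genes 73% were called higher, or 33.4% with TMM. LOC103944464 (4-2-like) had 51.4, 36.1 and 57.9 normalized counts in boron and 5.98, 2.08 and 0 in CK, and LOC103942110 (4-2-like) had 65.9, 33.4 and 49.1 in boron and 7.98, 7.29 and 0 in CK. Their log2 fold changes were 4.13 ± 0.66 and 3.53 ± 0.77, or 3.39 and 2.50 without CK library 3, in which both had no reads. The 4-1-like gene (LOC103965937) had 93.0, 157 and 8.83 in boron and 15.0, 3.12 and 8.64 in CK. Boron library 3 lies among the CK values there, and the call (log2 fold change 2.62 ± 0.93) was lost when CK library 2, boron library 1 or boron library 2 was left out.

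The coatomer and vacuolar sorting genes were lower in boron under every scaling. Among all listed genes 26.2% were called lower, or 28.9% with TMM. Coatomer subunit zeta-2-like (LOC103951241), of the coat that returns vesicles from the Golgi, had 17.4, 18.0 and 19.6 normalized counts in boron and 33.9, 110.3 and 60.5 in CK, a change of -1.68 ± 0.40 (limma, adjusted p = 0.00195). Vacuolar-sorting receptor 1-like (LOC103961218, scaffold NW_008988245.1, 507555 to 513219), which binds cargo bound for the vacuole, had 89.2, 76.6 and 84.4 in boron and 299, 314 and 269 in CK, a change of -1.81 ± 0.15 (limma, adjusted p = 8.91e-07). VPS22 homolog 1-like (LOC103926606), a subunit of the ESCRT-II complex that sorts membrane proteins for breakdown, had 82.4, 67.6 and 46.1 in boron and 129, 110.3 and 229 in CK, a change of -1.21 ± 0.30. All 3 had groups apart.

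The clathrin genes were uneven. Clathrin light chain 1-like (LOC103934611) had 8.72, 13.5 and 16.7 normalized counts in boron, while the CK libraries held 1 read in all. The ratio with the authors' size factors was 37.5 (counting interval 6.36 to 1517). This gene passed under TMM and DESeq2-type scaling, at 2.63 in each, but not under quantile scaling, at 1.01. A putative clathrin assembly protein, of the kind that recruits clathrin to membranes (LOC103942697), had 32.0, 35.2 and 57.9 in boron and 90.7, 125 and 114 in CK, a change of -1.42 ± 0.27. A second gene of the same description (LOC103932728) had 117, 34.3 and 204 in boron and 34.9, 32.3 and 55.1 in CK, values that overlap. Its change of 1.23 ± 0.54 (limma, adjusted p = 0.0481) was lost on leaving out boron library 1 or 3 or CK library 1 or 2, and was -0.19 with TMM.

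The summed counts of the cytoskeleton genes were lower relative to those of the trafficking genes in boron. The 22 cytoskeleton genes had 7642 ± 111 normalized counts per library in boron and 12923 ± 593 in CK (SD, n = 3 each). Most of these counts came from myosin-10-like (2234 in boron and 6201 in CK) and actin-depolymerizing factor 1-like (1703 in boron and 3521 in CK). With the authors' size factors these genes set the order of the groups, so the lower sum does not describe the cytoskeleton genes as a class. The 25 trafficking genes had 3280 ± 215 in boron and 1950 ± 8.20 in CK. With TMM scaling both sums were lower in boron, at 4671 ± 90.6 in boron and 21424 ± 918 in CK for the cytoskeleton and 2005 ± 139 in boron and 3233 ± 28.6 in CK for trafficking. The ratio of the sums, which does not depend on the size factors, was 2.34 ± 0.117 in boron and 6.63 ± 0.331 in CK, and without myosin-10-like 1.65 ± 0.0150 in boron and 3.45 ± 0.182 in CK. Numbers of genes did not divide that way: 16 of 22 cytoskeleton genes and 17 of 25 trafficking genes were higher. These shares, 72.7% and 68%, lie near the 73% of all listed genes that were called higher.

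**Figure D3:**
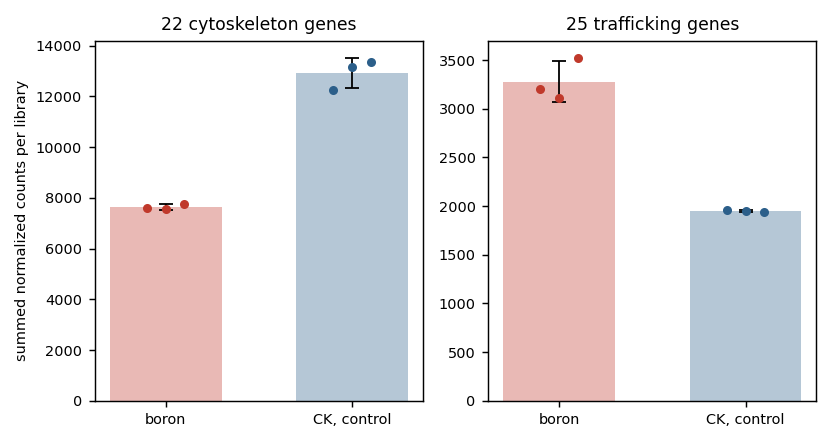
Summed normalized counts per library of the 22 cytoskeleton genes (left panel) and the 25 trafficking genes (right panel, its own scale), with bars at the mean of 3 libraries, SD as error bars and 1 point per library. Boron stands at 7642 against 12923 for CK on the left, and at 3280 against 1950 for CK on the right, where TMM scaling turns the order to 2005 against 3233.

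Per kilobase of gene length, the 5 members with the highest CK levels were all cytoskeleton genes, and all 5 fell. Ranking by the CK level favours genes that are lower in boron, and ranking by the boron level favours those that are higher, so the ranks are a description of levels. They were actin-depolymerizing factor 1-like, myosin-10-like, tubulin alpha-3, the major tubulin beta and actin, the last pair at 428 and 427 normalized counts per kilobase in CK and so hardly apart. In boron, actin-depolymerizing factor 1-like was still first, followed by myosin-binding protein 1 at 779.6, RABA3 at 675, myosin-10-like at 484, EXO70B1-like (LOC103945681) at 361 and RABA5b at 356.

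The direction, taken with the authors' size factors, went with abundance. All 14 members whose mean over the 6 libraries was at most 30 normalized counts were higher in boron, as were 82.9% of all listed genes in that range. Of the 8 members above 300, 3 were higher (37.5%), against 53.5% of all listed genes there. Members between 30 and 100 were higher in 68.8% of 16, and between 100 and 300 in 55.6% of 9, where the listed genes gave 77.6% and 72.0%. The members and the whole table ran the same way.

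**Figure D4:**
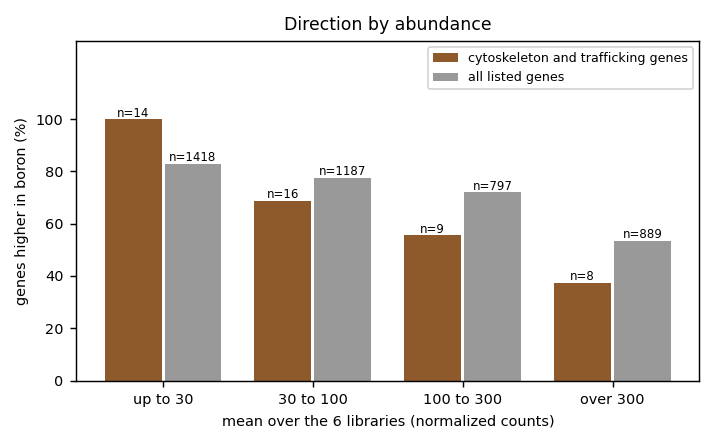
Percent of genes with a fold change above 0 in boron over CK, by mean normalized count over the 6 libraries, for the 47 cytoskeleton and trafficking genes (brown) and all 4291 listed genes (grey), with the number of genes above each bar. Both sets run downward, to 37.5% and 53.5% in the last bin.

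Gene copies that share a description make 8 pairs. With the authors' size factors the copies moved in opposite directions in 3 pairs (EXO70A1-like, the clathrin assembly protein and tubulin beta chain-like) and in the same direction in 5. With TMM the higher copy of each of the 3 pairs no longer passed, at 0.067, -0.19 and -0.41. The log2 ratio of one copy to the other within a library nearly removes the size factor, which is left only through the added 1. For tubulin beta, LOC103954803 over LOC103949433 averaged -2.06 ± 0.32 in boron and -4.12 ± 0.22 in CK, a difference of 2.06. For EXO70A1-like, LOC103965770 over LOC103963033 averaged -1.26 ± 0.62 in boron and -3.88 ± 0.57 in CK, a difference of 2.62. The clathrin assembly pair, LOC103932728 over LOC103942697, differed by 2.64 and the myosin-2 pair, LOC103927392 over LOC103934432, by 1.77. The groups of these 4 ratios did not overlap, each with an exact two-sided permutation p of 0.1, the smallest that 3 against 3 libraries allow, and of 0.2 when adjusted over the 8 pairs. In the 3 pairs of opposite direction, the copies had been selected as higher and lower on these same libraries, which fixed the side of the ratio. For tubulin beta and EXO70A1-like each copy had groups apart, so the ratios had to stand apart too. Their p-values are therefore no test. How reads shared by similar copies were assigned is not described in the sources used here, so values of single copies are uncertain. The members of each pair lie on different scaffolds.

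**Figure D5:**
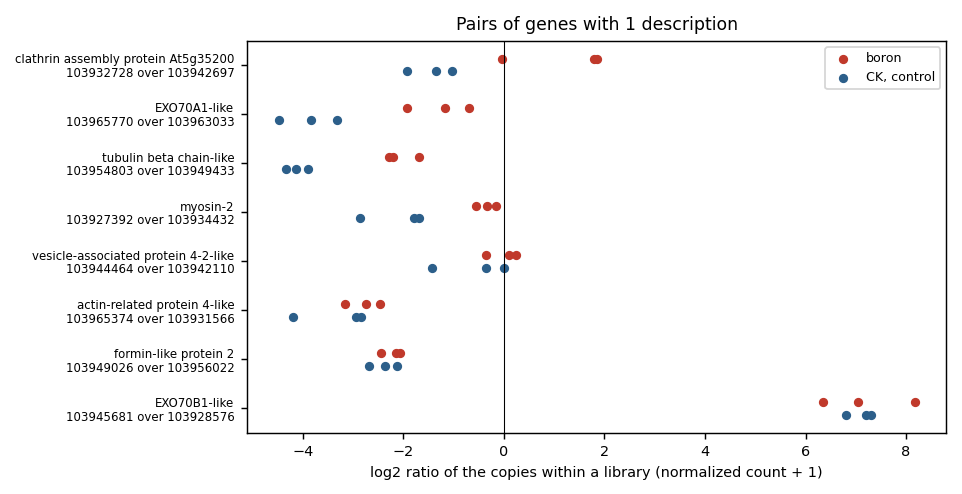
Log2 ratio of the copies of 8 gene pairs that share a description, computed within each library as normalized count plus 1 of the first named gene over that of the second, with 3 boron libraries in red and 3 CK libraries in blue. The colours stand apart in the upper 4 pairs and overlap in the lower 4.

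Genes around these pathways were counted from lists of their own. Their counts stand beside the shares over all listed genes, 73% called higher and 26.2% lower, or 33.4% and 28.9% with TMM. The lists are short and were not tested against these shares. Microtubule-associated proteins and kinesins numbered 31, with 28 higher and 3 lower (7 and 3 with TMM). AIR9-like (LOC103952386), a microtubule-associated protein, had 512 ± 32.3 normalized counts in boron and 221 ± 30.8 in CK, and kinesin-4-like (LOC103938335) had 332 ± 20.2 in boron and 667 ± 33.4 in CK. Other actin regulators numbered 14, with 11 higher and 3 lower (5 and 3 with TMM). Profilin (LOC103936373), which binds actin monomers, had 2252, 2211 and 2111 normalized counts in boron and 5441, 5609.6 and 5996 in CK, a log2 change of -1.37 ± 0.06 (limma, adjusted p = 1.07e-08). SCAR3-like (LOC103940993), of the complex that starts actin branching, had 671 ± 92.6 in boron and 232 ± 33.4 in CK. With TMM the log2 fold change of AIR9-like was -0.22 and that of SCAR3-like 0.096, neither of which passed.

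The list of COPII and ARF genes had 3 higher and 2 lower (0 and 2 with TMM), and its most abundant members were the ARF regulator AGD8 (LOC103936399), with 138 ± 4.02 in boron and 344 ± 182 in CK, and golgin IMH1-like (LOC103960204), with 144 ± 37.7 in boron and 58.2 ± 17.7 in CK (-0.11 with TMM). The list of dynamin and endocytosis genes had 5 higher and 5 lower (2 and 5 with TMM). AP-1 complex subunit mu-2-like (LOC103952972), of the clathrin adaptor of the trans-Golgi, had 764 ± 24.5 normalized counts in boron and 1639 ± 75.2 in CK. A phosphatidylinositol transfer protein (LOC103952734) had 342 ± 35.5 in boron and 1159 ± 153 in CK.

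Cell division genes, given beside KNOLLE and its relatives, were counted too. Of 49 listed, 42 were higher, 6 lower and 1 did not pass (20 and 7 with TMM). Of all listed genes 73% were called higher, or 33.4% with TMM. The summed level of the 49 was 7498 to 7601 normalized counts in boron and 8920 to 10556 in CK. Histone deacetylase HDT1-like, listed through the word histone, made up most of the CK sum and set the order of the groups. The most abundant were histone deacetylase HDT1-like (LOC103940874), with 3896 ± 118 in boron and 7941 ± 962 in CK, and cyclin-dependent kinase inhibitor 6-like (LOC103964480), with 980.1 ± 29.7 in boron and 478 ± 50.0 in CK, where TMM turned a log2 fold change of 1.04 to -0.40 and that passed (limma, adjusted p = 0.00455). Among the microtubule genes, 8 that build the phragmoplast, the array that lays down the cell plate, were all higher. They are MAP65-3-like, NACK1 and KIN-12 genes, picked after their values were seen, with log2 fold changes between 1.47 and 3.83, or between 0.13 and 2.84 with TMM, where both KIN-12F genes (LOC103954554 and LOC103951445) passed and the others did not. The part of dividing cells in the SNARE values was not tested.

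Markers of other tissues also differed, among listed genes of which 73% were called higher, or 33.4% with TMM. All 5 vascular markers were higher (3 passed with TMM), with a summed level of 580 to 666 normalized counts in boron and 144 to 163 in CK. The sieve element protein SEO-B-like (LOC103938158) had 241 ± 11.4 in boron and 1 read in each CK library, and PHLOEM PROTEIN 2-LIKE A1-like (LOC103946488) had 299.8 ± 45.7 in boron and 141 ± 11.1 in CK (-0.36 with TMM). Of 6 seed-type markers 5 were higher (3 passed with TMM), yet their sum was 1905 to 2044 in boron and 2309 to 2590.1 in CK, set by legumin B-like (LOC103946296) with 931 ± 104 in boron and 2235 ± 167 in CK. A LEA protein D-29 gene (LOC103944693) had 659.6 ± 129 in boron and 106 ± 29.6 in CK. The single listed peel marker, a WAX2 domain gene (LOC103935723), had 1.94, 0 and 0 in boron and 27.9, 43.7 and 32.4 in CK. The part of these tissues in the members' values was not tested.

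The second deposited table gives 1 score per gene for 42194 genes, without names. Judged from its values, the score is the difference of boron minus CK relative to the spread. It is above 0 for 39.1% of all its genes, with 11610 genes at 0, and for 73.3% of the listed genes. For the 47 members it is above 0 in the 33 that were higher and below 0 in the 14 that were lower. As a score of the same comparison, its sign repeats the direction and is no separate check. Unlisted tubulin, actin or trafficking genes could not be picked out of that table, because it holds gene identifiers only.

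The 5 genes that the word search caught by spelling are enzymes. Cellulose synthase A subunit 2-like (LOC103942164) had 2417 ± 32.6 normalized counts in boron and 13289.8 ± 525 in CK, a fall by 2.46 on the log2 scale. Subunits 7-like (LOC103949047) and 8-like (LOC103944068), which in Arabidopsis serve the secondary wall, were low and higher in boron, at 19.5 and 11.1 normalized counts in boron against 1.40 and 1.77 in CK. Trehalose-phosphate synthase 7 (LOC103944057) had 905 ± 70.6 in boron and 441 ± 19.1 in CK, a change of 1.03 ± 0.09 that TMM turned to -0.40, and that passed (limma, adjusted p = 0.00317). A glucan-protein synthase (LOC103962742) had 34.9 ± 8.59 in boron and 77.0 ± 19.6 in CK. With these 5 included, 36 of 52 matches were higher and 16 lower.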

How the data were processed

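Messenger RNA from pear pulp was sequenced in 6 libraries, 3 per group. Per the submitters' processing notes HISAT2 was used (no version given), while build, counter, strand setting and statistical test are not stated in the sources used here. The library values (signal, as normalized counts) are reads that the authors divided by a size factor per library. Within a tolerance of 0.01, 100% of each library's values were whole multiples of a single step, which gave back the reads, with size factors of 1.03, 1.11 and 1.02 for boron and 1.00, 0.961 and 0.926 for CK. The authors' deposited log2 fold changes and p-values served to see the selection: the largest adjusted p-value is 0.0499 and the smallest absolute log2 fold change 1.00. The deposited score, 1 per gene, and the gene length, another deposited value, were used as given.

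The design had foreseen raw counts or normalized values. Since normalized counts were found, limma 3.58.1 (trend, robust, R 4.3.3) was fitted to log2(normalized count + 1) over all 4291 genes, calling adjusted p-values (Benjamini-Hochberg) under 0.05, after tests on simulated data. edgeR 4.0.16 and DESeq2 1.42.0 on the recovered reads, with the authors' size factors, each called all 4291 genes (3146 higher, 1145 lower). Permutation tests used SciPy 1.17.1. Intervals and floors (3 reads) cover counting error only. Other alternatives were scalings, pseudocounts, filters, a replicate block and leaving out each library.

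The members and lists were chosen with earlier results of these data known. Values per library are given for the 2 largest changes and the 2 highest levels per kilobase of each class among passing members with groups apart, and for every member of classes of up to 2, and other members are named by choice. Genes outside the rule are the 2 most abundant of each related list, and the phragmoplast genes, which were picked after their values were seen. Descriptions with scarecrow or cathepsin, which the letters of SCAR and epsin had caught, were taken out of those lists after values were seen. No sequences are shown, since no reference sequence was used here.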

Additional observations from a re-analysis of the deposited data

How the results depend on the processing

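Of the 52 genes that the words matched, 36 were higher and 16 lower in boron. The number higher was 15 with TMM scaling, 15 with DESeq2-type scaling and 13 with quantile normalization over the listed genes. With only genes of a mean of at least 100 normalized counts it was 9, and the number lower was 10, because 17 of the 47 cytoskeleton and trafficking genes reach that mean. Under TMM 28 of the 47 passed in the same direction and 8 changed sign, under DESeq2-type scaling 28 and 7, and under quantile normalization 26 and 4, and none passed in the opposite direction. With a mean of at least 10, all of the 44 members left passed. Both count tools on recovered reads gave 36 and 16. With a pseudocount of 0.5, 46 of the 47 passed, and 45 with a pseudocount of 5 or with limma without trend and robust options.

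With the replicate number as a replicate block the counts were again 36 and 16, and all 47 passed in the same direction. Same-numbered libraries did not deviate together (correlations of -0.013, 0.026 and -0.039). What a number marks is not stated in the labels, and 3 libraries per group are too few to show that a pairing is absent. Leaving out each library in turn left 45 to 47 of the 47 passing, with the losses and the fold changes that moved by over 1.5 times named beside those genes. The 4-1-like vesicle-associated protein gene (LOC103965937) was 3.83 without boron library 3, and the clathrin assembly gene LOC103932728 was 1.94 without boron library 2. Genes with few reads are limited by depth: 3 members had a mean under 10 normalized counts.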
